A study of Mus musculus with 9 samples.

Results

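In RAW 264.7 cells given pamidronate, 73 named genes that were close to silent without the drug each reached at least 1 CPM in all 3 pamidronate libraries. CPM is a gene's count divided by the total count of its library and multiplied by 1000000. The genes were taken by rule, as those with a mean under 0.1 CPM over the 3 control libraries and at least 1 CPM in every pamidronate library, with predicted and clone-named genes and genes without a symbol left out. They are 73 of 24043 named genes, of which 10933 were under 0.1 CPM in the control, in a table of 49315 genes. With every kind of name kept, 88 genes met the thresholds. Because the pamidronate and control libraries chose these genes, the difference between those groups is given here as a description, with no p-value. The pamidronate + GGOH libraries took no part in the choice.

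RAW 264.7 is a mouse macrophage cell line used as a source of osteoclast-like cells, which it forms in response to the cytokine RANKL. According to the growth and treatment notes, cells had grown for 24 h when RANKL was added at 20 ng/ml, and at 48 h in all the drug was given for a further 24 h. The groups were pamidronate at 140 µM with geranylgeraniol (GGOH) at 5.25 µM, pamidronate at 140 µM alone, and a control without pamidronate. Each had 3 libraries, and the sample titles name no batch. Names of the libraries with GGOH also hold a tag, 25pct, whose meaning is not stated in the labels. The controls are labelled untreated although the growth notes mention RANKL for all 9, so whether they had RANKL is not settled by the labels. No group analysed here had GGOH alone. Only the controls are called biological replicates, and the p-values below measure the spread between these libraries, which may in part be technical.

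Pamidronate is a nitrogen-containing bisphosphonate, a class of drugs that block farnesyl diphosphate synthase and so starve cells of the isoprenoid lipids that are attached to small GTPases. GGOH is an alcohol from which cells can remake one of those lipids. Genes bound to other lineages, such as those of neurons, muscle, sperm or epithelia, are normally held inactive in a macrophage, where closed chromatin and missing activators keep their transcription near zero.

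Library totals ran from 14356069 to 17559086 counts in the pamidronate + GGOH libraries, from 16444207 to 16644139 in the pamidronate libraries and from 16943250 to 18957968 in the control libraries, so 1 count was worth 0.0527 to 0.0697 CPM. Mitochondrial RNA made up 5.43 to 6.31% of counts with pamidronate + GGOH, 3.71 to 5.19% with pamidronate and 10.4 to 10.8% in the control. Of 9 macrophage markers, 8 were at or above 1 CPM in each pamidronate + GGOH library, 7 in each pamidronate library and 9 in each control library. Their summed level was 7327 to 10611 CPM with pamidronate + GGOH, 4625 to 6552 CPM with pamidronate and 14898 to 18277 CPM in the control. Of 9 osteoclast markers, 6 passed 1 CPM in every library of each group. The 9 summed to 262 to 270.2 CPM with pamidronate + GGOH, 264 to 389.7 CPM with pamidronate and 80.4 to 103 CPM in the control. Single genes were the largest part of these sums, and not all markers moved with them. In the order pamidronate + GGOH, pamidronate and control, mean CPM was 6448, 4186 and 12762 for Lyz2 but 745, 618 and 639 for Cd14. Among osteoclast markers it was 138, 264 and 54.4 for Atp6v0d2 but 94.8, 17.2 and 25.4 for Mmp9. Calcr, the calcitonin receptor that marks mature osteoclasts, had 0 counts with pamidronate and in the control. The part that these shifts had in the results below was not tested, and in bulk RNA a few cells with much of a transcript cannot be told apart from many cells with little.

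Silence in the control was close to complete. Of the 73 genes, 8 had 0 counts over the 3 control libraries together, 37 had 1 to 3 counts, and 28 had 4 or 5. Together they summed to 381, 398 and 168 CPM in the pamidronate + GGOH libraries, 251, 260 and 296 CPM in the pamidronate libraries and 4.64, 2.27 and 4.13 CPM in the control libraries. Both drug-treated groups were far above the control in every library, which the rule required of the pamidronate libraries. Replicate 3 with GGOH was the lowest treated library. Named genes with any count numbered 16675 to 18056 in the pamidronate + GGOH libraries and 16271 to 17446 in the pamidronate libraries. In the control libraries they numbered 14166 to 15214. The part that this wider rise in detected genes had in the members' levels was not tested. The levels reached were modest. The median gene had a mean of 2.26 CPM with pamidronate, 33 genes stayed under 2 CPM and 5 reached 10 CPM. Scaled to transcript length, as the authors' TPM (counts per length, scaled to a common total), the means ran from 0.269 to 20.0 TPM with a median of 1.97 TPM. The plot of members by library shows this contrast gene by gene.

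**Figure D1:**
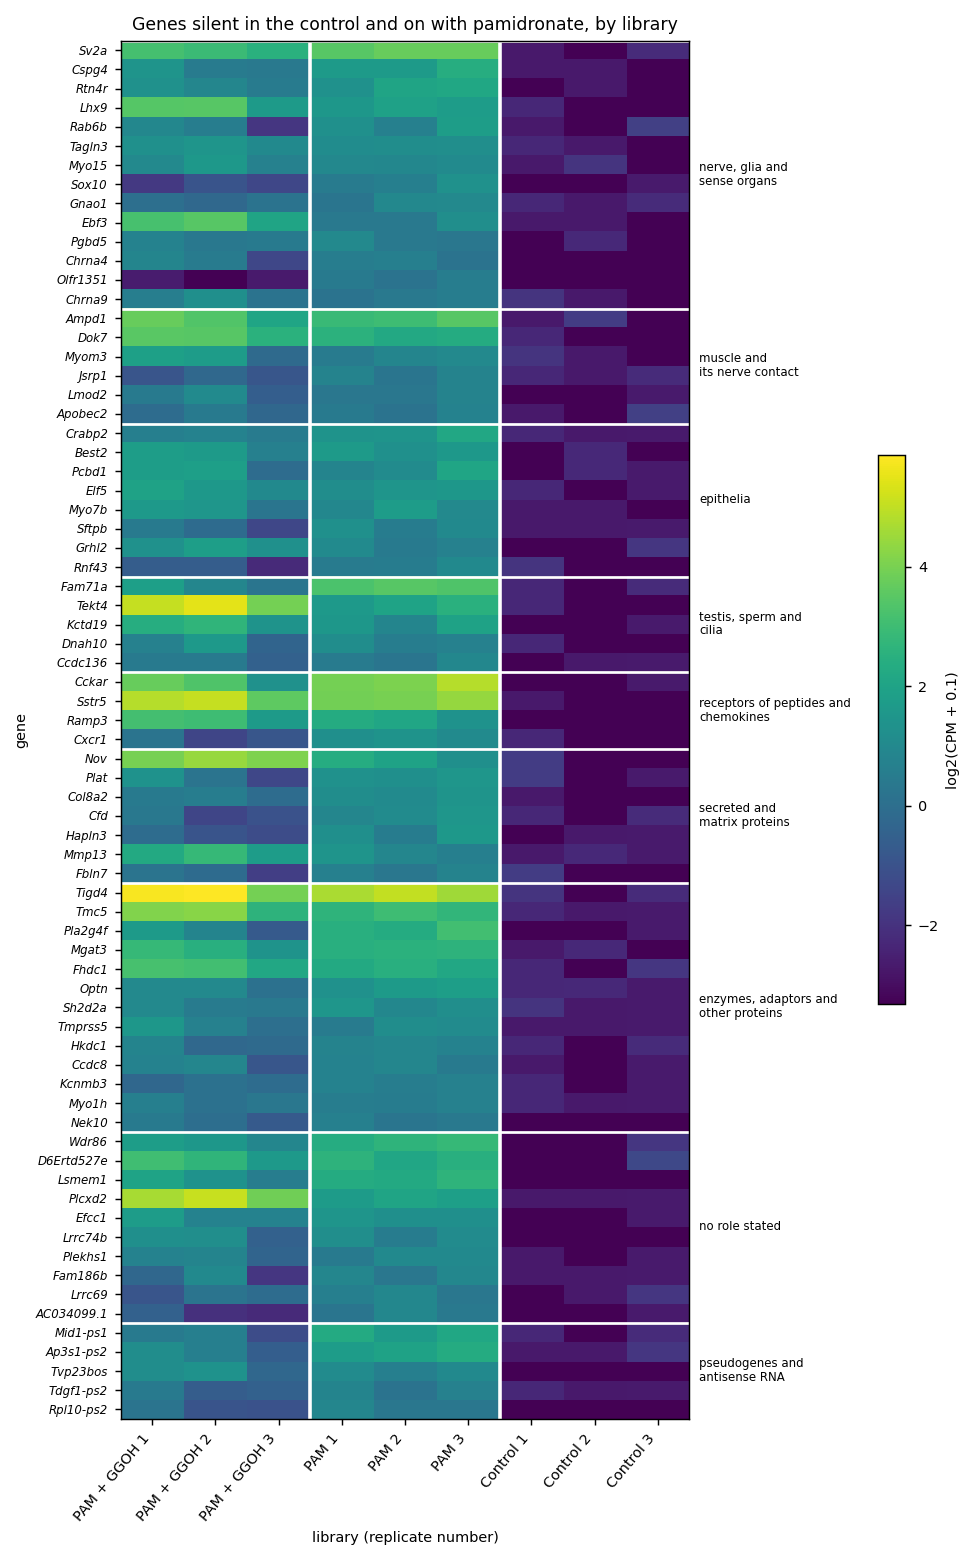
Level of 72 of the 73 genes (rows, grouped by the tissue or role for which the gene is known) in each library (columns), as log2(CPM + 0.1). The 3 control columns are dark throughout, the 3 pamidronate columns are all at or above 1 CPM, and the pamidronate + GGOH columns range from near control level (Olfr1351) to well above pamidronate alone (Tekt4, Plcxd2), with replicate 3 the darkest of the 3.

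At the edges of the rule the values were continuous. Just inside the control threshold were D6Ertd527e at a control mean of 0.0984 CPM, Rab6b and Apobec2, both at 0.0963 CPM, and just outside were Zfp13, Il1f9 and Ccdc154, at 0.106 CPM each. Just inside the pamidronate threshold were Chrna9, with a lowest pamidronate library of 1.02 CPM, and Apobec2 and Tdgf1-ps2, with 1.03 CPM each. Just outside were Cnn1 and Slc25a34, with 0.968 CPM each, and Ccdc180, with 0.973 CPM.

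In the other directions the same thresholds found fewer genes. With pamidronate + GGOH, 57 genes were on from a silent control, and 34 of them are among the 73. Only 9 genes were on in every control library and silent with pamidronate. A single gene was on with pamidronate and silent with pamidronate + GGOH, and it was Olfr1351.

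By identity, 68 of the 73 are protein-coding, 4 are pseudogenes and 1 is an antisense RNA. They lie on 19 chromosomes, at most 7 on any one. The tissue or role named for each gene below is textbook knowledge, and the grouping was made by hand with the values in view, so it orders the text and carries no test.

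The largest group, 14 genes, is known from nerve, glia or sense organs. Sv2a, a glycoprotein of synaptic vesicles (ENSMUSG00000038486, GRCm38 chromosome 3, 96181151 to 96195521), had 8.73, 7.52 and 5.52 CPM with pamidronate + GGOH, 11.1, 13.0 and 13.3 CPM with pamidronate, and 0.0527, 0 and 0.118 CPM in the control. The 3 groups did not overlap, and the log2 fold change of pamidronate + GGOH over pamidronate was -0.95 ± 0.20 (SE) with an adjusted p of 0.00143. Each adjusted p here and below comes from edgeR's quasi-likelihood test, adjusted by Benjamini-Hochberg over 15963 genes, and a gene is called where it is under 0.05. The SE of a fold change is its absolute size divided by the square root of that test's F statistic. It is thus worked out from the test and is no separate measure of spread. The pamidronate libraries that chose the members for being high are also 1 side of this comparison, which favours lower values with GGOH, so lower calls describe these libraries and are no independent test. For 24 members, which passed the filter on low counts only through the pamidronate libraries, fold changes are given without a p. Cspg4, the NG2 proteoglycan of glial precursors and pericytes, had 2.58, 1.32 and 1.20 CPM with pamidronate + GGOH, 3.12, 3.08 and 5.17 CPM with pamidronate, and 0.0527, 0.0529 and 0 CPM in the control. Sox10, the transcription factor of neural crest and glia (chromosome 15, 79154913 to 79164490), had 0.184, 0.418 and 0.285 CPM with pamidronate + GGOH, 1.32, 1.45 and 2.37 CPM with pamidronate, and 0, 0 and 0.0590 CPM in the control. Both genes were lower with GGOH than with pamidronate alone without overlap, and Sox10 lay only a few counts above the control with GGOH. Rtn4r, the Nogo receptor that limits axon growth, and Gnao1, the G protein alpha subunit most abundant in brain, were also called lower with GGOH, at log2 fold changes of -1.14 ± 0.32 (SE, adjusted p = 0.00785) and -0.99 ± 0.35 (SE, adjusted p = 0.0306). Olfr1351, an odorant receptor, had almost no counts with GGOH and is described below. Ebf3 and Lhx9, transcription factors of neuronal and gonadal development, were instead called higher with GGOH. The remaining 6 complete the group. Tagln3, a neuronal relative of calponin, and Myo15, the myosin of hair cell stereocilia, were not called. Nor were Pgbd5, a transposase-derived protein of brain, and Chrna9, a nicotinic receptor subunit of hair cells. Rab6b, a neuronal Rab GTPase of Golgi traffic, was at a log2 fold change of -1.29 ± 0.59 (SE). Chrna4, a nicotinic receptor subunit of neurons, was at -0.40 ± 0.51 (SE).

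Muscle and its nerve contact gave 6 genes. Ampd1, the AMP deaminase of skeletal muscle (chromosome 3, 103074014 to 103099720), had 13.2, 10.2 and 4.10 CPM with pamidronate + GGOH, 7.39, 7.92 and 11.1 CPM with pamidronate, and 0.0527, 0.212 and 0 CPM in the control. The treated groups overlapped and their difference was not called (log2 fold change -0.12 ± 0.38, SE, adjusted p = 0.818). Dok7, the adaptor that activates the receptor MuSK at the neuromuscular junction (chromosome 5, 35056766 to 35087839), had 11.4, 11.1 and 5.70 CPM with pamidronate + GGOH, 5.83, 4.54 and 4.86 CPM with pamidronate, and 0.105, 0 and 0 CPM in the control. It was called higher with GGOH, by 0.71 ± 0.27 (SE, adjusted p = 0.0405), although replicate 3 with GGOH lay within the range with pamidronate. Jsrp1, a protein of the sarcoplasmic reticulum junction, was at a log2 fold change of -1.57 ± 0.39 (SE). Lmod2, which lengthens thin filaments in the heart, was at -0.21 ± 0.43 (SE). Myom3 of the sarcomeric M-band and Apobec2, a muscle deaminase relative, were not called.

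From epithelia came 9 genes, none of which reached 5 CPM with pamidronate, and 8 of them are described here. Crabp2, a retinoic acid carrier of skin (chromosome 3, 87948666 to 87953376), was called lower with GGOH, at a log2 fold change of -1.29 ± 0.29 (SE). Sftpb, the surfactant protein B of lung, was at -1.39 ± 0.43 (SE), and Rnf43, a ubiquitin ligase that removes Wnt receptors in intestinal stem cells, at -2.09 ± 0.55 (SE). Grhl2 and Elf5, transcription factors of epithelia and of mammary gland and trophoblast, were not called. Grhl2 had 2.40, 3.48 and 2.33 CPM with pamidronate + GGOH, 1.98, 1.27 and 1.52 CPM with pamidronate, and 0, 0 and 0.177 CPM in the control, without overlap between the treated groups (adjusted p = 0.174). Best2, a bestrophin anion channel, Myo7b, a brush border myosin, and Pcbd1, a cofactor-recycling enzyme and coactivator of liver and kidney, were not called either.

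Testis, sperm and cilia gave 5 genes, of which 1 was called lower and 1 higher with GGOH. Fam71a, a testis-expressed gene (ENSMUSG00000091017, chromosome 1, 191162584 to 191164817), had 3.56, 1.74 and 1.08 CPM with pamidronate + GGOH, 9.37, 11.1 and 10.03 CPM with pamidronate, and 0.105, 0 and 0.118 CPM in the control. Tekt4, a tektin filament protein of the sperm tail (ENSMUSG00000024175, chromosome 17, 25471590 to 25476594), had 33.2, 44.3 and 15.3 CPM with pamidronate + GGOH, 3.00, 3.87 and 5.53 CPM with pamidronate, and 0.105, 0 and 0 CPM in the control. Fam71a was thus lower in every GGOH library than in any pamidronate library (-2.42 ± 0.34, SE, adjusted p = 7.37e-05), and Tekt4 higher (2.72 ± 0.41, SE, adjusted p = 0.000748). Kctd19, needed for meiosis in spermatocytes, Dnah10, an axonemal dynein heavy chain, and Ccdc136, a sperm protein, were not called.

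Of the 4 receptors of peptides and chemokines, Sstr5 and Cckar were among the 4 highest members per length, at 16.1 ± 3.00 and 13.97 ± 4.88 TPM with pamidronate (SD, n = 3 each). Cckar, the cholecystokinin receptor of pancreas and gallbladder (ENSMUSG00000029193, chromosome 5, 53697776 to 53707705), had 13.0, 9.96 and 2.39 CPM with pamidronate + GGOH, 15.4, 16.5 and 28.8 CPM with pamidronate, and 0, 0 and 0.0590 CPM in the control. Sstr5, a somatostatin receptor of pituitary and islets (ENSMUSG00000050824, chromosome 17, 25489875 to 25497288), had 28.8, 32.9 and 11.8 CPM with pamidronate + GGOH, 14.8, 15.7 and 21.3 CPM with pamidronate, and 0.0527, 0 and 0 CPM in the control. Each rests on a single control count. The ratio of pamidronate to control was 1109 for Cckar, with a 95% counting interval of 199 to 43849. For Sstr5 it was 944, with an interval of 169 to 37348. These intervals cover counting error only, not the spread between libraries, and take no account of the rule that chose the genes. Cckar lay lower with GGOH without overlap but was not called (-1.44 ± 0.54, SE, adjusted p = 0.0645), and Sstr5 overlapped (0.33 ± 0.34, SE, adjusted p = 0.452). Ramp3, which turns the calcitonin receptor-like receptor into an adrenomedullin receptor, had 8.54, 7.87 and 3.13 CPM with pamidronate + GGOH, 4.87, 4.17 and 2.49 CPM with pamidronate and no control count, at least 70.3-fold higher with pamidronate than a floor of 3 counts over the control group allows. Cxcr1, an interleukin-8 receptor of neutrophils, was at a log2 fold change of -2.08 ± 0.45 (SE).

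Secreted and matrix proteins gave 7 genes. Nov, a matricellular growth regulator also called CCN3 (chromosome 15, 54745702 to 54754039), had 15.6, 21.9 and 16.9 CPM with pamidronate + GGOH, 4.99, 3.81 and 2.31 CPM with pamidronate, and 0.211, 0 and 0 CPM in the control. Mmp13, the collagenase of cartilage and bone (ENSMUSG00000050578, chromosome 9, 7272514 to 7283331), had 4.73, 6.97 and 3.30 CPM with pamidronate + GGOH, 2.58, 1.75 and 1.46 CPM with pamidronate, and 0.0527, 0.106 and 0.0590 CPM in the control. Both were higher with GGOH without overlap, by 2.12 ± 0.30 (SE, adjusted p = 0.000110) and 1.19 ± 0.29 (SE, adjusted p = 0.00394) on the log2 scale. Hapln3, a link protein that ties hyaluronan to proteoglycans (ENSMUSG00000030606, chromosome 7, 79115102 to 79131018), had 0.860, 0.418 and 0.342 CPM with pamidronate + GGOH, 2.28, 1.33 and 2.86 CPM with pamidronate, and 0, 0.0529 and 0.0590 CPM in the control. Its log2 fold change was -2.15 ± 0.43 (SE), and that of Cfd, the complement protease adipsin, was -1.96 ± 0.47 (SE). Col8a2, a collagen chain of the corneal basement membrane, was called lower with GGOH (-1.14 ± 0.33, SE). Plat, the tissue plasminogen activator, and Fbln7, a fibulin, were at -1.14 ± 0.55 and -1.21 ± 0.54 (SE).

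A further 13 genes encode enzymes, adaptors and other proteins. Tigd4, derived from a DNA transposon of the tigger family (ENSMUSG00000047819, chromosome 3, 84593574 to 84597032), was the highest member by either scale. It had 54.0, 58.0 and 15.1 CPM with pamidronate + GGOH, 25.7, 32.0 and 23.5 CPM with pamidronate, and 0.158, 0 and 0.118 CPM in the control. Per length this was 31.7 ± 17.6 TPM with pamidronate + GGOH and 20.0 ± 3.34 TPM with pamidronate (SD, n = 3 each). Its libraries with GGOH lay on both sides of those with pamidronate alone. Tmc5, a transmembrane channel-like protein, had 17.1, 18.5 and 6.04 CPM with pamidronate + GGOH, 6.25, 8.05 and 6.57 CPM with pamidronate, and 0.105, 0.0529 and 0.0590 CPM in the control. Pla2g4f, a cytosolic phospholipase A2, had 3.07, 1.67 and 0.513 CPM with pamidronate + GGOH, 5.47, 4.90 and 8.39 CPM with pamidronate, and 0, 0 and 0.0590 CPM in the control. Tmc5 was not called (adjusted p = 0.0672), and Pla2g4f was lower in every GGOH library than in any pamidronate library (-2.01 ± 0.45, SE).

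Mgat3, which adds the bisecting sugar to N-glycans, had 7.07, 5.50 and 2.56 CPM with pamidronate + GGOH, 5.41, 5.75 and 6.08 CPM with pamidronate, and 0.0527, 0.106 and 0 CPM in the control. Fhdc1, a formin that acts on actin and microtubules, had 8.91, 8.43 and 4.44 CPM with pamidronate + GGOH, 4.63, 5.44 and 4.44 CPM with pamidronate, and 0.105, 0 and 0.177 CPM in the control. Neither was called. Optn, an autophagy receptor, Sh2d2a, a T cell adaptor, and Kcnmb3, a subunit of calcium-activated potassium channels, were called lower with GGOH, at -1.09 ± 0.30, -0.78 ± 0.31 and -0.97 ± 0.37 (SE). The protease Tmprss5, the hexokinase relative Hkdc1 and the myosin Myo1h were not called. The kinase Nek10 and Ccdc8, a protein of the 3M growth complex, were at -0.70 ± 0.41 and -0.47 ± 0.43 (SE).

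No role is stated here for 10 genes, of which Plcxd2 moved most. Plcxd2 (ENSMUSG00000087141, chromosome 16, 45959263 to 46010218) had 25.4, 33.9 and 14.4 CPM with pamidronate + GGOH, 3.18, 4.05 and 3.53 CPM with pamidronate, and 0.0527, 0.0529 and 0.0590 CPM in the control. Wdr86 had 3.32, 2.79 and 1.77 CPM with pamidronate + GGOH, 4.99, 6.23 and 7.05 CPM with pamidronate, and 0, 0 and 0.177 CPM in the control. Plcxd2 was higher with GGOH in every library and Wdr86 lower in every library, at 2.59 ± 0.26 (SE, adjusted p = 5.44e-06) and -1.39 ± 0.31 (SE, adjusted p = 0.00176). D6Ertd527e had 8.11, 6.27 and 3.02 CPM with pamidronate + GGOH, 6.07, 4.23 and 5.47 CPM with pamidronate, and 0, 0 and 0.295 CPM in the control, and was not called. Lsmem1 had 3.93, 2.44 and 1.37 CPM with pamidronate + GGOH, 4.93, 4.66 and 6.14 CPM with pamidronate and no control count. It was called lower with GGOH (-1.19 ± 0.32, SE, adjusted p = 0.00870) and remained at least 46.6-fold higher with GGOH than the floor of 3 counts over the control group allows. AC034099.1 had 0.615, 0.139 and 0.114 CPM with pamidronate + GGOH, 1.08, 1.81 and 1.22 CPM with pamidronate, and 0, 0 and 0.0590 CPM in the control, without overlap between the treated groups. Of the other 5, Efcc1, Lrrc74b and Plekhs1 were not called. Fam186b and Lrrc69 were at log2 fold changes of -0.94 ± 0.53 and -1.10 ± 0.44 (SE).

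The 4 pseudogenes and the antisense RNA are uncertain, since reads can be shared with a near copy or with the other strand. Mid1-ps1 had 1.29, 1.46 and 0.342 CPM with pamidronate + GGOH, 4.81, 3.15 and 4.32 CPM with pamidronate, and 0.105, 0 and 0.118 CPM in the control. Mid1, its intact parent, had 9.96, 10.3 and 7.23 CPM with pamidronate + GGOH, 17.6, 21.5 and 20.7 CPM with pamidronate, and 1.64, 3.01 and 2.95 CPM in the control. Both were highest with pamidronate alone. Ap3s1-ps2 had 2.15, 1.46 and 0.570 CPM with pamidronate + GGOH, 3.30, 3.81 and 4.86 CPM with pamidronate, and 0.0527, 0.0529 and 0.177 CPM in the control. Its parent Ap3s1 moved the other way, at 68.5, 70.1 and 68.5 CPM with pamidronate + GGOH, 41.5, 45.0 and 45.9 CPM with pamidronate, and 71.9, 66.5 and 72.4 CPM in the control. The other members of this kind are the pseudogenes Rpl10-ps2 and Tdgf1-ps2 and the antisense RNA Tvp23bos, which was not called. Among the protein-coding members, 12 share exon sequence with another annotated gene, and whether the counting used strand is not stated in the labels. For Myo1h the partner is Kctd10 at 27.7 to 31.1 CPM in the control, and for AC034099.1 the partners are Ctsd, at 1490 to 1765 CPM there, and Ifitm10. Ifitm10 had 3.38, 2.79 and 0.626 CPM with pamidronate + GGOH, 7.51, 10.5 and 8.76 CPM with pamidronate, and 0.158, 0.0529 and 0.177 CPM in the control, above AC034099.1 in every treated library. For Lsmem1 it is the antisense gene Gm17056, which had 6.45, 7.04 and 2.96 CPM with pamidronate + GGOH, 12.4, 15.9 and 17.5 CPM with pamidronate, and 0.422, 1.005 and 0.118 CPM in the control, above Lsmem1 in every treated library. Whether reads were shared in these pairs was not tested.

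The comparison of pamidronate + GGOH with pamidronate asked how far each gene stayed on when the lipid precursor was supplied with the drug. The answer differed from gene to gene. Of the 73, 34 were at or above 1 CPM in each GGOH library and 55 had a mean of at least 1 CPM, while only Olfr1351 had a mean under 0.1 CPM. By ratio of mean CPM, GGOH over pamidronate alone, 22 genes were under 0.5, 29 between 0.5 and 1, 16 between 1 and 2, and 6 at 2 or more. The median ratio was 0.749, against 1.08 over all 12927 genes at 1 CPM or more in each pamidronate library, and the ratio was under 1 for 69.9% of the members and 42.5% of all those genes. Without replicate 3 with GGOH, 40 ratios were under 1 in place of 51, and the median was 0.868. The members were chosen high with pamidronate, which lowers this ratio, so the shares are a description.

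In the edgeR fit, 26 of the 73 were called lower with pamidronate + GGOH than with pamidronate, where 23.6% of all genes tested were called lower. Another 7 were called higher, where 25.2% of all genes were, and 40 were not called, of which 30 had a fold change under 0 and 10 over 0. The median log2 fold change was -0.59 over the members and 0.00 over all genes tested. All 73 passed the filter on low counts, but only 49 would have passed it without the pamidronate libraries. Of those 49, 12 were called lower, 7 higher and 30 not, so 14 of the 26 lower calls rest on genes that entered the test through the libraries that chose them. By library, 28 members had every GGOH library below every pamidronate library, 6 had every one above and 39 overlapped, beside 20.9% and 38.7% of all genes tested that did not overlap in those directions.

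**Figure D2:**
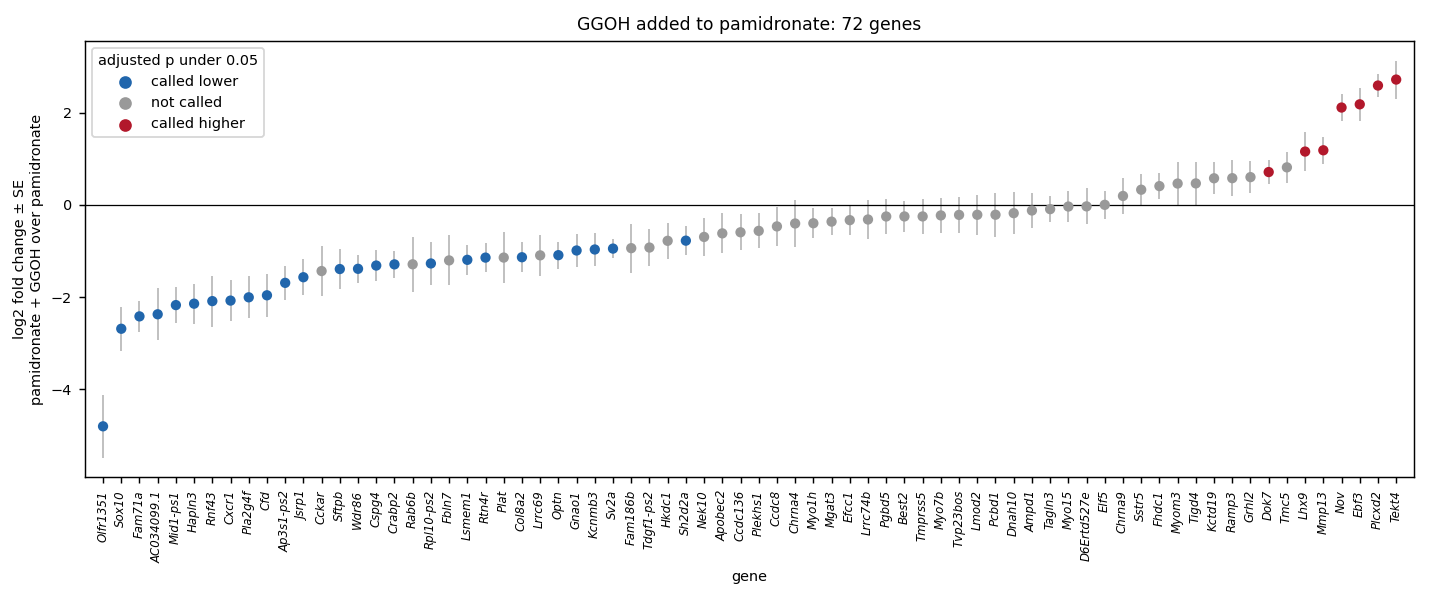
Log2 fold change of 72 of the 73 genes, pamidronate + GGOH over pamidronate, with its standard error, ordered by size. Blue points are 25 of the 26 genes called lower, red points the 7 called higher at an adjusted p under 0.05, and grey points the 40 not called, running from Olfr1351 at -4.81 to Tekt4 at 2.72.

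The 7 genes called higher were Tekt4, Plcxd2, Ebf3, Nov, Mmp13, Lhx9 and Dok7. Ebf3, a transcription factor of the COE family (ENSMUSG00000010476, chromosome 7, 137193673 to 137314445), had 9.10, 10.9 and 4.04 CPM with pamidronate + GGOH, 1.20, 1.21 and 2.25 CPM with pamidronate, and 0.0527, 0.0529 and 0 CPM in the control. Lhx9 (chromosome 1, 138825186 to 138848577) had 10.7, 11.1 and 3.08 CPM with pamidronate + GGOH, 2.82, 3.69 and 3.28 CPM with pamidronate, and 0.105, 0 and 0 CPM in the control. Ebf3 did not overlap between the treated groups (2.19 ± 0.36, SE, adjusted p = 0.000279), whereas replicate 3 of Lhx9 with GGOH lay within the range with pamidronate (1.16 ± 0.43, SE, adjusted p = 0.0444). For these genes the lowest expression was in the control and the highest with both agents together.

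At the other end stood Olfr1351 (ENSMUSG00000063216, chromosome 10, 79012472 to 79019645), with 1, 0 and 1 counts with pamidronate + GGOH, 21, 17 and 23 counts with pamidronate, and 0 counts in the control. It was the single member under 0.1 CPM with GGOH, at a ratio to pamidronate of 0.0338 with a counting interval of 0.00400 to 0.127 (log2 fold change -4.81 ± 0.68, SE), all given as a description. The next lowest were Sox10, Fam71a, AC034099.1 and Hapln3, at ratios of mean CPM of 0.172, 0.210, 0.211 and 0.250.

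**Figure D3:**
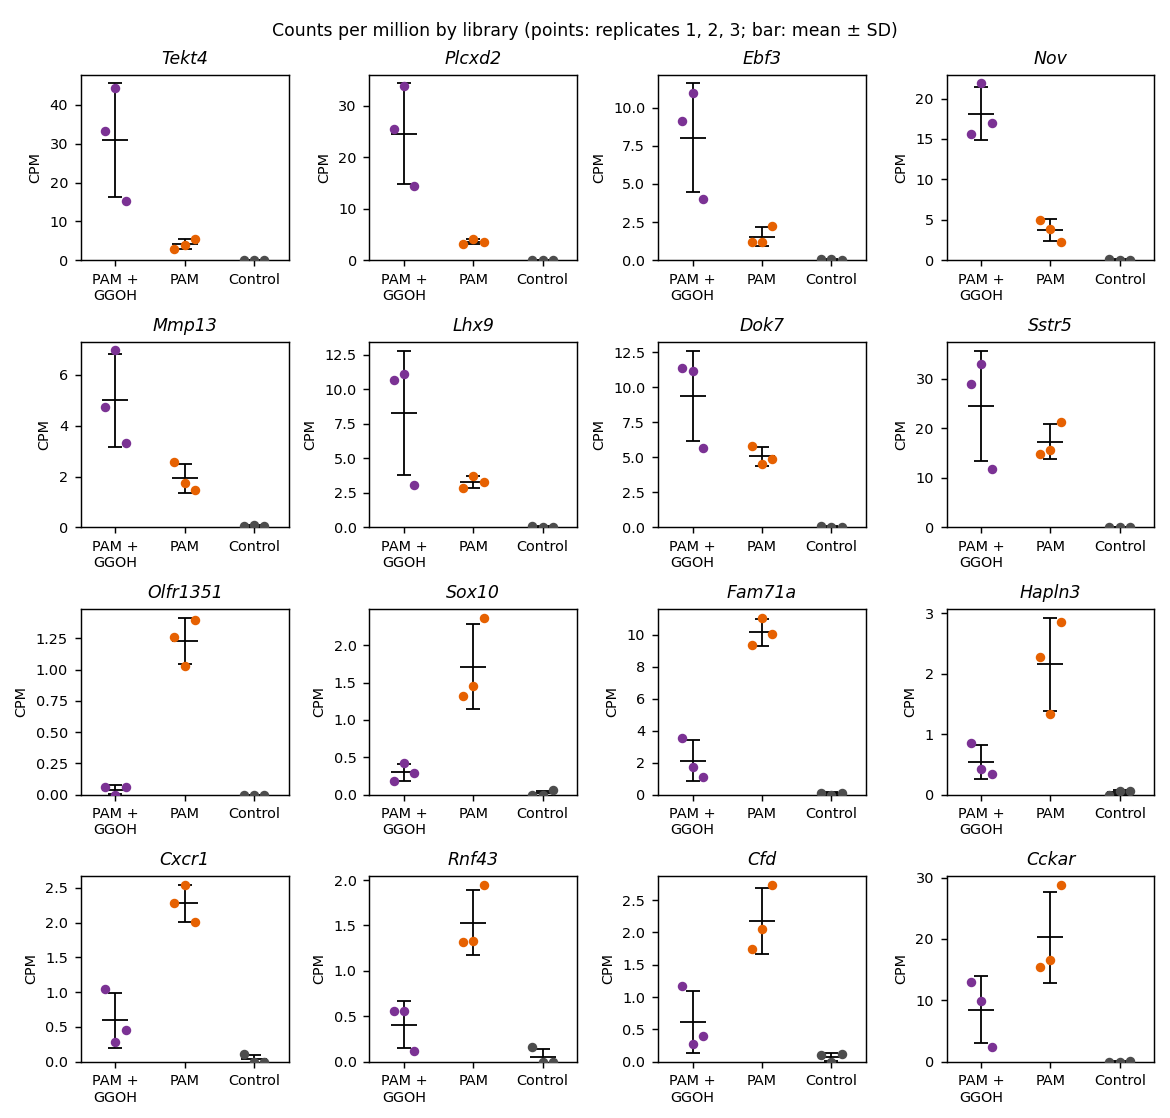
CPM in each library (points, replicates 1 to 3 from left to right) with the mean and SD (bar) of 16 genes in pamidronate + GGOH, pamidronate and control. The top 7 panels are the genes called higher with GGOH, such as Tekt4 at 15.3 to 44.3 CPM against 3.00 to 5.53 CPM with pamidronate, Sstr5 overlaps, and the others lie lower with GGOH, such as Fam71a at 1.08 to 3.56 CPM against 9.37 to 11.1 CPM.

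Against the control, the pamidronate + GGOH libraries were higher for 70 of the 73 members in every library, where 42.9% of all genes tested were, and the 3 that overlapped were Olfr1351, Rnf43 and Rab6b. In the edgeR fit 72 members were called higher than the control, where 26.3% of all genes tested were, and Olfr1351 was the exception. Only 49 of the 73 would have passed the filter on low counts without the pamidronate libraries, and Olfr1351 is not among them. Since the control was chosen low, a count near 73 carries little weight beyond each gene's own values. Both comparisons with pamidronate + GGOH use the same GGOH libraries.

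Replicate 3 of the pamidronate + GGOH group stood apart from the other 2. It had the lowest value of the 3 for 60 of 73 members, or 82.2%, against 41.3% of all genes tested, and the median ratio of replicate 3 to the mean of replicates 1 and 2 was 0.459 over the members and 0.981 over all genes tested. Genes at 1 CPM or more numbered 62, 56 and 36 of the 73 in replicates 1, 2 and 3. Without replicate 3, 53 members were at or above 1 CPM in each remaining GGOH library. In the fit without it, 14 members were called higher than with pamidronate in place of 7. Of all 16502 genes tested in that fit, 3980 were called higher and 3019 lower. Tigd4, Tmc5, Sstr5, Ramp3, Fhdc1, Kctd19 and Myom3 joined the higher calls, at log2 fold changes of 0.71 (Sstr5 and Fhdc1) to 1.22 (Tmc5). Cckar joined the lower calls (-0.94 ± 0.27, SE, adjusted p = 0.0142), while Gnao1, Kcnmb3, Rpl10-ps2, Sftpb and Sh2d2a left them, so that 22 were called lower and the median was -0.32. For Tekt4, Plcxd2, Ebf3, Nov and Mmp13 every GGOH library, replicate 3 included, was above every pamidronate library.

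**Figure D4:**
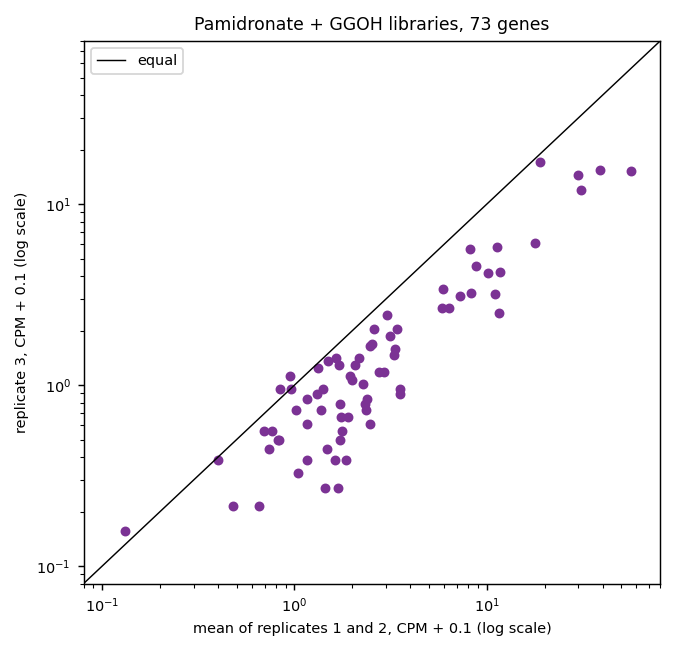
Level of each of the 73 genes in pamidronate + GGOH replicate 3 against the mean of replicates 1 and 2, both as CPM + 0.1 on log scales, with the line of equality. Nearly all points lie below the line, with a median ratio of 0.459.

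The 15 tissue lists, made by hand for the study's cell type and for other tissues, held 1 member in all, Cckar among 22 genes of stomach, gut and pancreas. None of the 26 testis, 28 germ cell, 28 neuron, 20 muscle or 21 epithelial genes in those lists is a member, and the other lists, for retina and sensory cells, liver and kidney, fibroblasts and bone, endothelium, lymphocytes, mast cells and other blood cells, secreted factors, macrophages and osteoclasts, held none either. In the control 21 of 28 neuron genes and 19 of 26 testis genes were under 0.1 CPM. Counted by their own level with pamidronate, 3 of 26 testis genes, 1 of 28 neuron genes, 5 of 20 muscle genes and 0 of 21 epithelial genes were at or above 1 CPM in each pamidronate library, against 1 testis gene, 2 neuron genes, 4 muscle genes and 0 epithelial genes in each control library. Eqtn and Fam71f2, a sperm acrosome gene and a relative of Fam71a, were 2 of those 3 testis genes and are named after their values were seen, at means of 101 and 145 CPM with pamidronate + GGOH, 45.7 and 234 CPM with pamidronate, and 0.202 and 1.12 CPM in the control. Their control levels kept them out of the 73.

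The genome position of the members, which played no part in the rule, was examined next. An active gene was defined as one at 1 CPM or more in each pamidronate library. The same level chose the members, and the other control-silent genes compared with them did not reach it, so the shares are a description. Of the 68 protein-coding members, 15 had an active gene ending within 10 kb upstream on the same strand, or 22.1%, against 326 of 5749 other control-silent protein-coding genes outside clustered receptor, immune and small RNA families, or 5.67%. Within 50 kb the shares were 45.6% and 19.1%, and the median distance was 61.5 kb for members and 262 kb for the others. The families were left out of the other genes only, and Olfr1351 stays among the members. No test was made of this difference, and whether reads came from transcripts running on from the upstream gene was not tested.

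**Figure D5:**
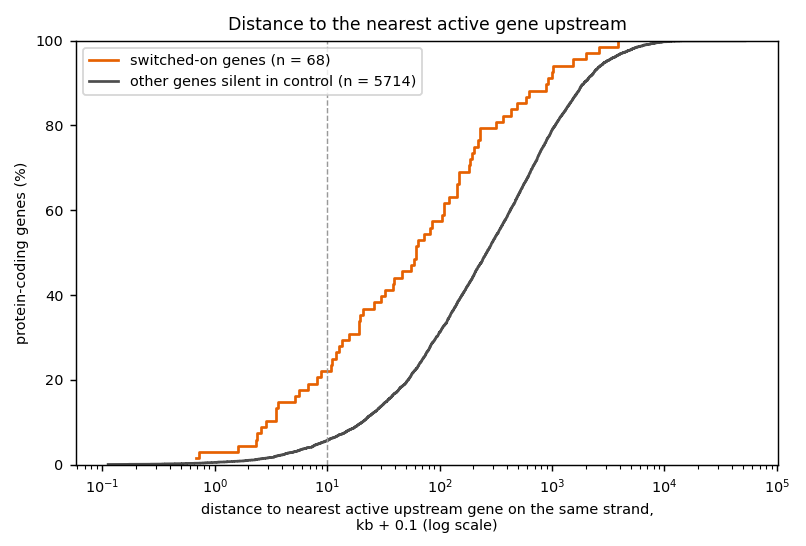
Cumulative share of protein-coding genes by distance to the nearest active gene upstream on the same strand (kb + 0.1, log scale), for the 68 protein-coding members and 5714 other control-silent genes that have such a neighbour. The members' curve lies to the left of the other genes', at 22.1% of members by the dashed line at 10 kb.

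Counting all biotypes, 16 members had such a neighbour within 10 kb, and in 5 of these pairs the neighbour was itself at least 2-fold higher with pamidronate than in the control, against 81 of 465 such pairs among the other named control-silent genes. Fam71a lies 5.48 kb downstream of Atf3, a stress-response transcription factor at means of 92.3 CPM with pamidronate + GGOH, 160 CPM with pamidronate and 29.5 CPM in the control. Lsmem1 lies 2.25 kb downstream of Ifrd1, at 101 CPM with pamidronate + GGOH, 233 CPM with pamidronate and 20.3 CPM in the control. Hapln3 lies 2.75 kb downstream of Mfge8, at 77.1 CPM with pamidronate + GGOH, 119 CPM with pamidronate and 44.5 CPM in the control. Tagln3 lies 5.12 kb downstream of Abhd10, at 21.9 CPM with pamidronate + GGOH, 41.8 CPM with pamidronate and 7.80 CPM in the control. In these pairs the neighbour was highest with pamidronate alone, as Fam71a, Lsmem1 and Hapln3 were, while Tagln3 overlapped between the treated groups. Ampd1, downstream of the predicted gene Gm43062 at 1.52 kb, is the fifth. Gm43062 had 2.64 CPM with pamidronate + GGOH, 3.11 CPM with pamidronate and 0.378 CPM in the control. Ampd1 had means of 9.14, 8.81 and 0.0881 CPM in that order, above Gm43062 in both treated groups, and overlapped between those groups. Of the others, Myo15 and Dnah10 lie closest, 0.585 kb from Drg2 and 0.630 kb from Atp6v0a2, and those neighbours had ratios of pamidronate to control of 1.27 and 1.12. Of the 16 members with a near neighbour 7 were called lower and 1 higher with GGOH than with pamidronate. Of the 57 without one 19 were called lower and 6 higher, and of all genes tested 23.6% were called lower and 25.2% higher. Some of the lower calls, such as Pla2g4f and Hapln3, passed the filter on low counts only through the pamidronate libraries. Whether a near neighbour goes with lower calls was not tested. Tekt4 and Sstr5 are neighbours on chromosome 17, pointing towards each other with 13281 bases and no other gene between them, and both were on in all treated libraries.

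Promoter sequence from RefSeq (build GRCm38.p6) was available for 51 members, in 60 windows running from 250 bases before to 50 bases after a transcript start. The windows of 5 genes are shown, those among the 5 highest and 5 lowest ratios of GGOH to pamidronate whose window lies at the deposited gene start. Tekt4, Ebf3 and Mmp13 were higher with GGOH and Fam71a and Hapln3 lower. Plcxd2 and Olfr1351 have windows at other starts, with GGGCGG in that of Plcxd2 and TGACNNNGC in that of Olfr1351. Capitals mark matches to any of 9 short motifs, searched on both strands, where N is any base and matches may overlap. They were the TATA box TATAAA, the GC box GGGCGG, the E-box CACGTG, the cyclic AMP element TGACGTCA, the AP-1 element TGANTCA, the ATF4 composite element TGATGNAAT, the NF-kappaB element GGGANTTCC, the antioxidant element TGACNNNGC and the sterol element TCACNCCAC. The windows are chr17:25471340-25471639 (plus strand) for Tekt4, chr7:137314396-137314695 (minus) for Ebf3, chr9:7272264-7272563 (plus) for Mmp13, chr1:191164768-191165067 (minus) for Fam71a and chr7:79130969-79131268 (minus) for Hapln3.
Tekt4: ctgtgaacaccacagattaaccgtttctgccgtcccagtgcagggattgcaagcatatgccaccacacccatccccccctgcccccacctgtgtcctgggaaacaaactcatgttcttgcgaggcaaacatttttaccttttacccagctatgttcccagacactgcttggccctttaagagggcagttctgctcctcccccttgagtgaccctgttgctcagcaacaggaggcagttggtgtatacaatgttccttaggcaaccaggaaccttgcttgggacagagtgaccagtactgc
Ebf3: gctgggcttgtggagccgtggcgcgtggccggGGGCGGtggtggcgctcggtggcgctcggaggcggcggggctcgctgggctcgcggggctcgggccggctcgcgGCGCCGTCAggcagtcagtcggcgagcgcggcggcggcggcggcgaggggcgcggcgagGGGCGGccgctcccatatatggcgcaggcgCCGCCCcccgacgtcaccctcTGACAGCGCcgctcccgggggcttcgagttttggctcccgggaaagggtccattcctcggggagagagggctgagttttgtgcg
Mmp13: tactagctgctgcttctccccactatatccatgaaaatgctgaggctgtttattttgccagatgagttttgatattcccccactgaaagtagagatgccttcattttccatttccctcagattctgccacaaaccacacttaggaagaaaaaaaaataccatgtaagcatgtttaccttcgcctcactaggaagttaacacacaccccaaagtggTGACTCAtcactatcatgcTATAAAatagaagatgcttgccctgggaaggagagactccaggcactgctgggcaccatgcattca
Fam71a: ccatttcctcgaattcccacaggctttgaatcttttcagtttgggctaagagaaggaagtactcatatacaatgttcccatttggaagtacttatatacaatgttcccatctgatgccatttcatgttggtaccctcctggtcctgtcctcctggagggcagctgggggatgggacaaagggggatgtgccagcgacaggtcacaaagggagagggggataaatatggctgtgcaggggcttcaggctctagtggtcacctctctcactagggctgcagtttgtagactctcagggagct
Hapln3: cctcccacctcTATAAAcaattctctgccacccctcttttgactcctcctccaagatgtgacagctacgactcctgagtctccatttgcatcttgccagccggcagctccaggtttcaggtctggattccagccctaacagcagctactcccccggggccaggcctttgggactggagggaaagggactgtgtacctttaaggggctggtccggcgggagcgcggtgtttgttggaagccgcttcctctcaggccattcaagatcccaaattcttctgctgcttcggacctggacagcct
The Ebf3 window matched GGGCGG and TGACNNNGC, the Mmp13 window matched TATAAA near the start and TGANTCA, and the Hapln3 window matched TATAAA far from it. The Tekt4 and Fam71a windows matched none of the 9.

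The GC box was in 43.3% of member windows and 35.7% of all 32851 windows. The TATA box was in 10% of member windows and 13.6% of all, the AP-1 element in 8.33% and 7.81%, the antioxidant element in 10% and 12.4%, and the E-box in 1.67% and 7.15%. The cyclic AMP, ATF4, NF-kappaB and sterol elements were in 0 of 60 member windows and in 1.79%, 0.965%, 1.68% and 1.24% of all windows. Member windows had a median of 9 CG dinucleotides and 57.3% GC, against 7 and 52.7% over all windows.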

How the data were processed

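RNA from 9 samples of RAW 264.7 cells was sequenced, with libraries of total RNA depleted of ribosomal RNA per the labels. Per the submitters' processing notes, reads were trimmed with Trimmomatic 0.36, the genome build was GRCm38, and DESeq was used in a role not given. No aligner, counter or strandedness is named in the sources used here. The authors deposited raw counts per gene for 49315 genes, and per-sample files that differed from that table in 0 rows. The authors also deposited TPM values, used here to compare levels between genes and as an alternative threshold. Of the genes, 174 had no symbol.

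Groups follow the treatment named in each sample's title. CPM is the count scaled by the column sum of all genes, without TMM factors. The members, the tissue lists and the tests were chosen with earlier results of these data known, and the grouping by tissue was made after the members' values were seen. Genes were kept by filterByExpr (15963 genes), scaled with TMM factors, fitted over all 9 libraries and tested with edgeR's quasi-likelihood test (edgeR 4.0.16, R 4.3.3, robust fit, Benjamini-Hochberg adjustment, called under 0.05, biological coefficient of variation 0.127). TMM factors were 1.09 to 1.12 with pamidronate + GGOH, 0.958 to 0.985 with pamidronate and 0.904 to 0.955 in the control, so CPM ratios and fitted fold changes differ slightly. Intervals (95%, exact) and the floor of 3 counts over a group cover counting error only. Replicate libraries differed beyond counting error (chi-square per degree of freedom 4.00 to 37.2). On simulated data with 15963 genes, the pamidronate + GGOH against pamidronate comparison recovered 29.9%, 62.7% and 87.9% of genes changed 1.5-, 2- and 4-fold and called 9 unchanged genes. The changed genes were drawn from all genes tested, so recovery for genes with counts like the members' was not measured.

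Genes named with values in every library were the 20 highest members by mean CPM with pamidronate, the 5 lowest and 5 highest by ratio of GGOH to pamidronate, and tissue-list members, with the genes next to each threshold given by the value that the rule used. Other values in every library, for Grhl2, Lhx9, the parents of pseudogenes and the overlapping genes Ifitm10 and Gm17056, were chosen after they were seen. Gene positions are those in the deposited table, and 64 members had the same coordinates in GENCODE M21. Alternatives were other scalings, no filter, DESeq2 1.42.0, fits of 2 groups, a replicate block, each library left out, and other thresholds, with some member subsets added after the data were seen. The values of 1 member are counted in the totals but not reported here by name.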

Additional observations from a re-analysis of the deposited data

How the results depend on the processing

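The number of genes found depended on the thresholds. It was 32 with a control mean under 0.05 CPM, 115 under 0.2 CPM, 159 with at least 0.5 CPM and 32 with at least 2 CPM in each pamidronate library, 63 to 88 with other scalings, TPM or all names, and 64 to 91 with 1 library left out. The genes silent with GGOH numbered 4 with TPM thresholds, Olfr1351 and 3 microRNA genes that are not among the 73 (Mir6769b, Mir711 and Mir7231). Members at or above 1 CPM in each GGOH library numbered 30 to 53 with 1 library left out, 53 of them without GGOH replicate 3, and 29 to 41 with other scalings or TPM.

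Calls lower with GGOH than with pamidronate numbered 21 to 29 when 1 library was left out, with medians of -0.75 to -0.32. Calls higher numbered 5 to 14, with 14 without GGOH replicate 3. Over all genes tested in those fits, lower calls ran from 2810 of 16299 to 4010 of 16594. Higher calls ran from 3446 of 16531 to 4430 of 16578. Calls above the control numbered 67 to 72 among members and 3484 to 4468 over all genes tested. DESeq2 gave 22 lower, 8 higher and 72 above the control, where 3484, 3988 and 3852 of all 15963 genes were. The 13 members that also had a control mean under 0.05 CPM and 2 CPM in each pamidronate library had 5 lower, 3 higher and 13 above the control. In the main fit, from which these counts come, 23.6%, 25.2% and 26.3% of all genes tested were so called. With a fit of only GGOH and control libraries 49 members could be tested and all 49 were called, where 3769 of 15106 genes were called higher. With upper-quartile factors the median of all genes against the control moved to 0.23, with 5834 called higher and 2600 lower in place of 4202 and 4157, and 72 members were still called higher. Of the 33 calls between the treated groups, 25 held in all 15 alternative fits, and the other 8 were lost in at least 1, among them Dok7, Gnao1, Kcnmb3, Lhx9, Rpl10-ps2, Sftpb and Sh2d2a. Members had 17 to 529 counts in a pamidronate library and 0 to 5 in a control library, and the part of depth in the calls was not tested.

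Deviations of same-numbered libraries correlated at -0.224 to 0.204, and those of differently numbered ones at -0.215 to 0.177. With 3 libraries per group these values do not settle whether the numbers pair the libraries. With the replicate number as a block, 26 members were called lower, 8 higher and 71 above the control, with a median of -0.60. Of all 15963 genes tested in that fit, 3684 were called lower, 3938 higher and 4081 above the control.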

Other observations

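Among the 57 named genes that were silent in the control and at or above 1 CPM in every pamidronate + GGOH library, 23 are not among the 73, and they are described here with no test. Skint7, of a skin and thymus immunoglobulin-like family, had means of 15.5 CPM with pamidronate + GGOH, 0.484 CPM with pamidronate and 0.0197 CPM in the control. Pappa2, a secreted protease of insulin-like growth factor binding proteins, had 7.96 CPM with pamidronate + GGOH, 0.907 CPM with pamidronate and 0 CPM in the control. Hspb8, a small heat shock protein, had 6.34 CPM with pamidronate + GGOH, 0.443 CPM with pamidronate and 0.0921 CPM in the control. Srrm4, a splicing regulator of neurons, had 2.87 CPM with pamidronate + GGOH, 0.283 CPM with pamidronate and 0 CPM in the control. The odorant receptors Olfr146, Olfr1457, Olfr101, Olfr935 and Olfr132 were also among the 23, at 1.85 to 2.93 CPM with pamidronate + GGOH and 0.101 to 1.01 CPM with pamidronate. Olfr1351, the odorant receptor among the 73, had the reverse order, at 0.0395 CPM with pamidronate + GGOH and 1.23 CPM with pamidronate.

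The 9 genes on in every control library and silent with pamidronate included several known from macrophages and other myeloid cells. C1qc, a chain of complement C1q, had means of 0.163 CPM with pamidronate + GGOH, 0.0601 CPM with pamidronate and 4.85 CPM in the control. Fpr2, a formyl peptide receptor, had 1.33 CPM with pamidronate + GGOH, 0.0404 CPM with pamidronate and 2.45 CPM in the control. Slamf9 had 1.22 CPM with pamidronate + GGOH, 0.0808 CPM with pamidronate and 3.37 CPM in the control. Ms4a7, Ms4a4b, Rgs18, Slc24a3, Fam19a2 and Ccdc152 completed the 9, at 1.34 to 2.66 CPM in the control.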
